A study of Mus musculus with 6 samples.

Results

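The coagulation and complement genes described here are 36 genes whose products circulate in plasma or guard the vessel wall. They were chosen by name as a functional group, with earlier results of these data known. Of these, 34 had a probe whose transcript accession matched a RefSeq transcript of the gene, among 13971 genes named in all, and each of the 34 had a single probe. F9 and C4bp were not matched and are not analysed here. All animals were of the C57BL/6 strain and 14 months old, and liver RNA from each was hybridised to a 1-colour array. The tested animals, 3 mice numbered 1, 3 and 4, carried a human c-Src transgene driven by the mouse metallothionein promoter. The controls were 3 wild-type samples, labelled as mouse liver controls 1, 2 and 4. The metallothionein promoter responds to zinc and other metals and is not specific to hepatocytes, the study considered zinc induction usually unnecessary, and the labels do not say whether a given mouse received zinc, whether its liver held tumour or what its sex was. The study assessed tumours at 20 months, later than the age given for these livers, and the wild-type array 3 and transgenic array 2 were left out by the authors for low signal.

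Most plasma clotting factors and complement components are made by hepatocytes and secreted. Clotting starts when tissue factor meets factor VII, passes through a chain of serine proteases to thrombin, and ends in fibrin, with the protein C system as a brake and plasmin as the enzyme that dissolves the clot. Complement is a parallel protease cascade in which lectin, classical and alternative branches converge on C3, after which the terminal components assemble a pore in the target membrane. The terminal pore is built from C5 (gene Hc), C6, C7, C8 and C9, and C8 is itself made of alpha, beta and gamma chains from the genes C8a, C8b and C8g.

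Values below are log2 of the background-subtracted probe signal after quantile normalization, differences are transgenic minus wild-type with limma's moderated SE, and n is 3 arrays in each group throughout. The signal of one probe is not set against that of another. Median raw signal was 94.8 to 117 on the transgenic and 53.8 to 93.4 on the wild-type arrays, so brightness before normalization differed between the groups. Transgenic Src signal lay above wild-type on every array (9.67, 8.48 and 7.71, against 6.65, 7.21 and 6.62). Mt1 differed by 3.71 ± 0.53 and Mt2 by 4.88 ± 0.44. Mt1 and Mt2 are the mouse's own metallothionein genes and not the transgene. A metal exposure that differed between the groups cannot be told apart from the transgene in these comparisons. The hepatocyte markers Alb, Apoa1, Ttr and Tat were above background on all 6 arrays, and their summed normalized signal was 101754 to 109045 on the transgenic and 102136 to 108178 on the wild-type arrays. Alb, Apoa1 and Ttr lie near the top of the signal scale, where quantile normalization sets close values on every array. The sums therefore cannot show whether hepatocyte content differed. Transgenic replicate 4 stood apart. Signal from Uty, Ddx3y and Eif2s3y, all on the Y chromosome, failed the background threshold there and passed it on the other 5 arrays, while Kdm5d, also on the Y chromosome, passed it on all 6. The mean log2 signal of 7 female-biased liver genes minus that of 6 male-biased ones was -2.44, -3.94 and 2.46 on transgenic replicates 1, 3 and 4, against -5.97 to -5.90 on the wild-type arrays. Results that rest on replicate 4 are therefore given with and without it.

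Most of the 34 genes had small differences between transgenic and wild-type livers after quantile normalization. With 3 arrays in each group this does not show that the groups were alike. The median log2 difference was 0.07, against 0.02 over all features, and 28 of the 34 differed by less than 0.5 either way. After Benjamini-Hochberg adjustment over all 34175 features limma called none of the 34, and none of all features either (percent called 0). At an unadjusted p under 0.05 there were 3 genes, all lower in transgenic livers, namely F3, F7 and C8b. That is 8.82% of the 34, against 7.09% of all features in either direction (4.37% higher and 2.72% lower). Bright features are a closer background for those of the 34 that are bright. Of the 4112 features at or above the lower quartile of these genes' mean signal (9.19), 3.75% had such a p (2.6% higher and 1.14% lower). C8b lies above that quartile. F3, F7, F11 and C6 lie below it, so the shares over bright features are not a matched background for them. Transgenic and wild-type arrays were fully separate for 11 of the 34 (32.4%), 6 higher and 5 lower. The shares were 16% over all features (10.1% higher and 5.9% lower) and 13.2% over the bright ones (8.32% higher and 4.84% lower). None of the 34 had a difference above 0.5 (the highest was 0.41, for Kng1), while 14.3% of all features and 5.42% of bright ones did. The genes that differed by more than 0.5 were all lower, namely F3, F7, F11, C6, C8a and C8b. The share of all features lower by more than 0.5 was not counted. Without transgenic replicate 4 the non-overlapping genes were 6 higher and 8 lower, against 25.4% of all features. An exact two-sided permutation test of 3 arrays against 3 cannot give a p below 0.1, which is the value for each non-overlapping gene.

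The direction of the small differences depended on the scaling between arrays. After quantile normalization 21 of the 34 were positive (61.8%, against 51.7% of all and 51.5% of bright features), and after median scaling 8 of the 34 were, with a median of -0.22 against -0.08 for all features. Under median scaling 0 of the 34 were higher and 7 lower without overlap, against 15.6% of all features in either direction. F3, F7, F11, C6 and C8b kept negative differences under both scalings, at -0.82, -0.79, -0.64, -1.70 and -0.99 after median scaling.

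**Figure D1:**
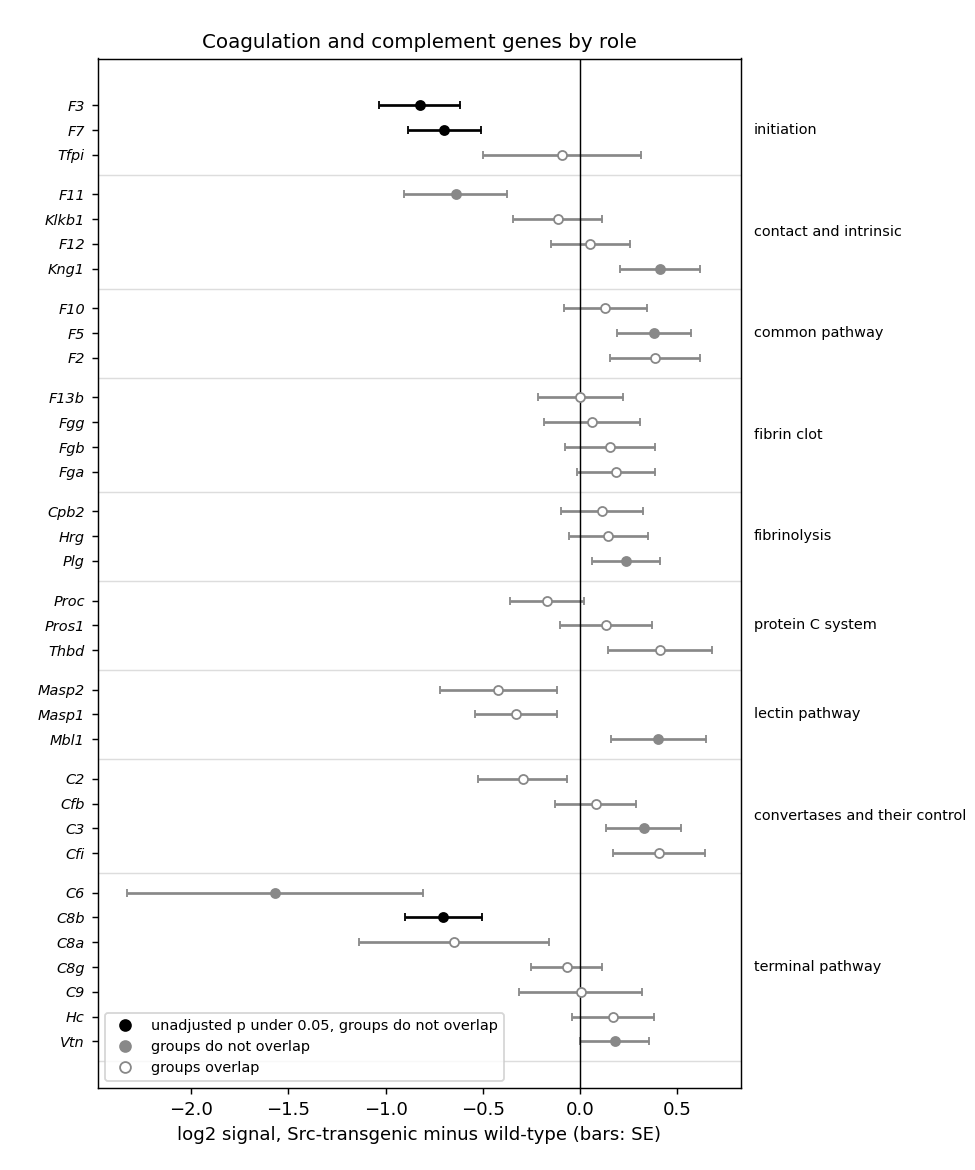
Log2 difference (transgenic minus wild-type, horizontal axis) of the 34 genes with a probe, grouped by role, with bars for limma's SE. Black points (F3, F7 and C8b) have an unadjusted p under 0.05, filled grey points have non-overlapping groups, and open points overlap. C6 has the widest bar (SE 0.76) and the most negative value (-1.57).

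**Figure D2:**
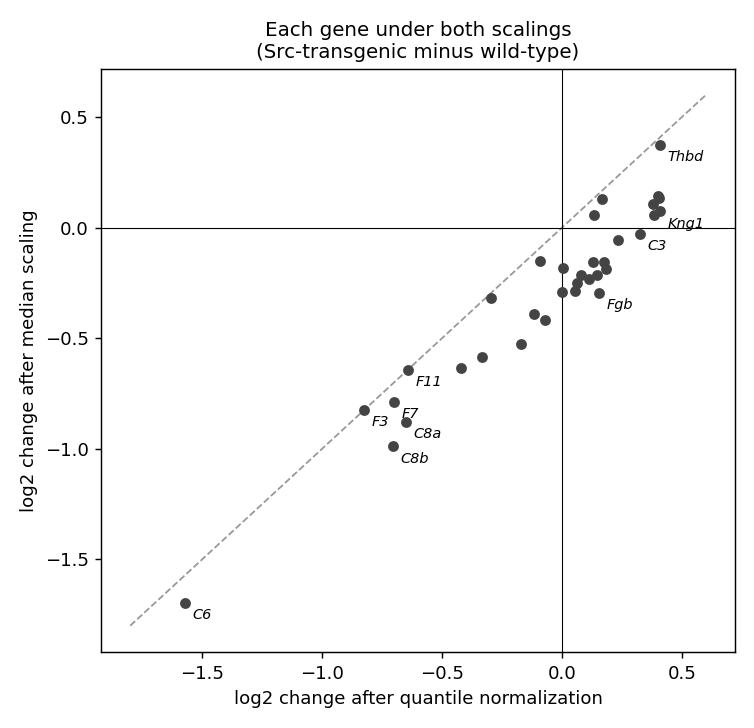
Log2 difference of each of the 34 genes after quantile normalization (horizontal axis) and after median scaling (vertical axis), transgenic minus wild-type, with the dashed line marking equal values. Most points lie below the dashed line, and 21 genes are right of zero while 8 are above it.

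The initiating pair of clotting was lower in transgenic livers on every array. F3 encodes tissue factor, the membrane receptor that starts clotting, and F7 encodes the protease that binds it. F3 read 7.73, 7.39 and 7.23 on transgenic replicates 1, 3 and 4, against 8.25, 8.30 and 8.28 on wild-type replicates 1, 2 and 4. The groups were separate, and the wild-type arrays spanned a much narrower range than the transgenic ones. The difference was -0.83 ± 0.21 (unadjusted p = 0.0067, limma adjusted p = 0.69), or 1.77-fold lower, and leaving out single arrays gave -0.97 to -0.71. F7 read 8.48, 8.50 and 8.64 on the transgenic arrays, against 9.38, 9.06 and 9.27 on the wild-type arrays. Its groups were separate as well, by more than the range within either group. The difference was -0.70 ± 0.19 (unadjusted p = 0.0094, limma adjusted p = 0.69), or 1.62-fold lower, with -0.79 to -0.63 over the arrays left out.

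Both probes lay in patches, which are areas of a slide where neighbouring spots were jointly bright or dim. The 2 probes sat in the same slide row (95), at columns 73 and 87. For F3 the median deviation of the surrounding spots was -0.71 and 0.65 on the transgenic arrays 3 and 4, and 0.68 on the wild-type array 2. Subtracting it moved F3 to 7.87, 8.11 and 6.58 on the transgenic arrays, against 8.15, 7.62 and 8.23 on the wild-type arrays, with overlapping groups and a difference of -0.48 (unadjusted p = 0.32). For F7 the surrounding spots deviated by 2.58 on wild-type replicate 4 and by less than 0.5 on the other arrays. Subtraction took that array to 6.69, below all others, and turned the F7 difference to 0.58 (unadjusted p = 0.41). Before subtraction F7 on wild-type replicate 4 lay between the other wild-type arrays, and without that array the difference was -0.68. How far the patches contribute to the F3 and F7 values was not tested beyond these measurements.

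**Figure D3:**
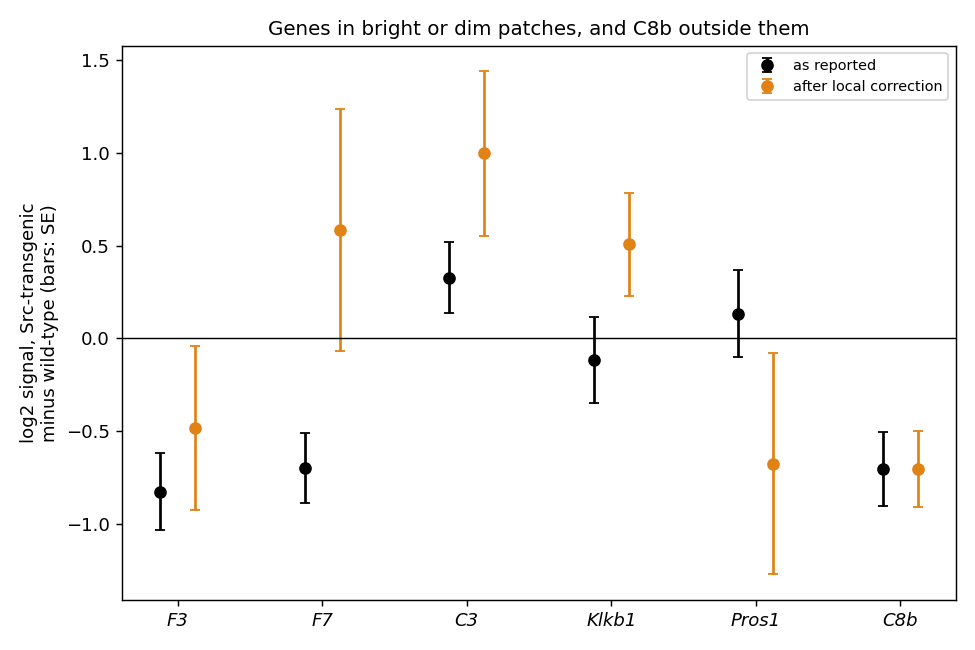
Log2 difference (transgenic minus wild-type, vertical axis, bars for SE) as reported in black and after subtraction of local slide brightness in orange. Patches covered the probes of F3, F7, C3, Klkb1 and Pros1 on 1 to 3 arrays, and that of C8b on none. F7 turns from -0.70 to 0.58, Klkb1 and Pros1 change sign, and C8b stays at -0.70.

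The remaining gene of the initiation step, Tfpi, encodes the inhibitor of the tissue factor complex and is made largely by endothelium. It was above background on 1 transgenic and 1 wild-type array, read 4.40 to 5.23 on the transgenic and 4.45 to 5.74 on the wild-type arrays, and its difference of -0.09 ± 0.41 cannot be read closely. F3, Tfpi and Thbd were listed together as genes made mainly outside hepatocytes. Whole-liver RNA does not show which cells gave the F3 signal, and hepatocytes may be among them. In whole liver, fewer cells of a type and less RNA per cell cannot be told apart. Of 5 endothelial markers with a probe, 4 were negative and 0 had an unadjusted limma p under 0.05, with summed signals of 2043 to 2485 on the transgenic and 2187 to 3049 on the wild-type arrays. Cdh5, a defining endothelial marker, was above background on 0 transgenic arrays and 1 wild-type array. Of 4 stellate cell and fibroblast markers 3 were negative and 0 had such a p, with sums of 2009 to 2743 and 2029 to 2900 in transgenic and wild-type livers, and Lrat was above background on 0 transgenic and 2 wild-type arrays. Their part in the F3 value was not tested.

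In the contact and intrinsic branch, which activates factor IX on charged surfaces, the genes with probes went different ways. F11 encodes the protease that activates factor IX. It read 6.74, 6.72 and 6.92 on the transgenic arrays, against 7.87, 7.42 and 7.02 on the wild-type arrays. The groups were separate, but the lowest wild-type array lay close to the highest transgenic one. The difference was -0.64 ± 0.26 (unadjusted p = 0.0504), -0.42 without wild-type replicate 1 and -0.85 without wild-type replicate 4. Kng1 encodes kininogen, the carrier of bradykinin and cofactor of the contact enzymes. It read 13.20, 12.90 and 13.37 on the transgenic arrays, against 12.67, 12.78 and 12.79 on the wild-type arrays. Every transgenic array was above every wild-type array, by 0.41 ± 0.20 on average (unadjusted p = 0.089), and the value was 0.07 after median scaling, where the groups overlapped. Mice carry a close paralog, Kng2, which the probe may also read.

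F12 encodes factor XII, which starts the contact branch, and Klkb1 encodes plasma prekallikrein, which it activates. F12 differed by 0.05 ± 0.21 and Klkb1 by -0.12 ± 0.23, with overlapping groups for both. Klkb1 lay in a patch on 2 arrays and had 0.51 after local correction. Klkb1 and F11 are neighbours in the RefSeq gene order with 0 protein-coding genes between them, and their intervals were -0.67 to 0.44 for Klkb1 and -1.28 to 0.00 for F11 (95%, log2). F7 and F10 are adjacent in the same way.

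Common pathway genes were positive in all 3 cases under quantile normalization. F5 encodes the cofactor of the enzyme that activates prothrombin. It read 12.38, 12.31 and 12.38 on the transgenic arrays, against 11.78, 11.99 and 12.16 on the wild-type arrays. All transgenic arrays were higher and close to one another, with a difference of 0.38 ± 0.19 (unadjusted p = 0.092) that was 0.11 after median scaling. F2, which encodes prothrombin, differed by 0.38 ± 0.23, and its groups overlapped. F10 encodes the protease that cleaves prothrombin and differed by 0.13 ± 0.21, or -0.02 without transgenic replicate 4. Of the 5 vitamin K-dependent genes with a probe (F2, F7, F10, Proc and Pros1), whose products need gamma-carboxylation to bind calcium, 3 were positive and 2 negative, with F7 alone at an unadjusted p under 0.05. Vkorc1 and Ggcx, the reductase and carboxylase of the vitamin K cycle, differed by 0.12 ± 0.19 and -0.24 ± 0.21, and their probes lay in a patch on 3 arrays and 1 array. Local correction gave 0.64 for Vkorc1 and -0.26 for Ggcx, and median scaling gave -0.18 and -0.33.

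The fibrinogen genes Fga, Fgb and Fgg, which encode the chains of the clot protein and lie side by side, differed by no more than 0.18. Fga read 13.45, 13.82 and 13.61 on the transgenic arrays, against 13.59, 13.30 and 13.44 on the wild-type arrays. Fgb read 13.99, 14.35 and 14.50 on the transgenic arrays, against 13.99, 14.00 and 14.38 on the wild-type arrays. Groups overlapped for each chain. The differences were 0.18 ± 0.20 for Fga, 0.15 ± 0.23 for Fgb and 0.06 ± 0.25 for Fgg, and the 95% intervals, taken as transgenic over wild-type ratios, were 0.81 to 1.59, 0.75 to 1.65 and 0.69 to 1.58. After median scaling all 3 were negative, at -0.19, -0.29 and -0.25. F13b, which encodes the carrier subunit of the fibrin crosslinking enzyme, differed by 0.00 ± 0.22, with -0.16 without transgenic replicate 4.

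Fibrinolysis genes and the protein C brake gave small values. Plg encodes plasminogen, the precursor of plasmin. It read 12.01, 12.17 and 12.14 on the transgenic arrays, against 11.84, 11.84 and 11.94 on the wild-type arrays. The groups were separate but close, with a difference of 0.24 ± 0.18 (unadjusted p = 0.23) that was -0.05 after median scaling. Cpb2, which encodes an inhibitor of fibrinolysis, and Hrg, which encodes a plasma protein that binds heparin and plasminogen, differed by 0.11 ± 0.21 and 0.14 ± 0.20. Thbd encodes thrombomodulin, the endothelial receptor that turns thrombin into an activator of protein C. It read 8.20, 8.39 and 8.97 on the transgenic arrays, against 8.22, 8.22 and 7.88 on the wild-type arrays. Transgenic replicate 4 was the high array, and the difference of 0.41 ± 0.27 was 0.18 without it. Proc (protein C) and Pros1 (its cofactor protein S) differed by -0.17 ± 0.19 and 0.13 ± 0.24, and Pros1, in a patch on transgenic replicate 3, had -0.67 after local correction. The -0.67 rests on that array, which the correction took from 8.62 to 6.68.

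**Figure D4:**
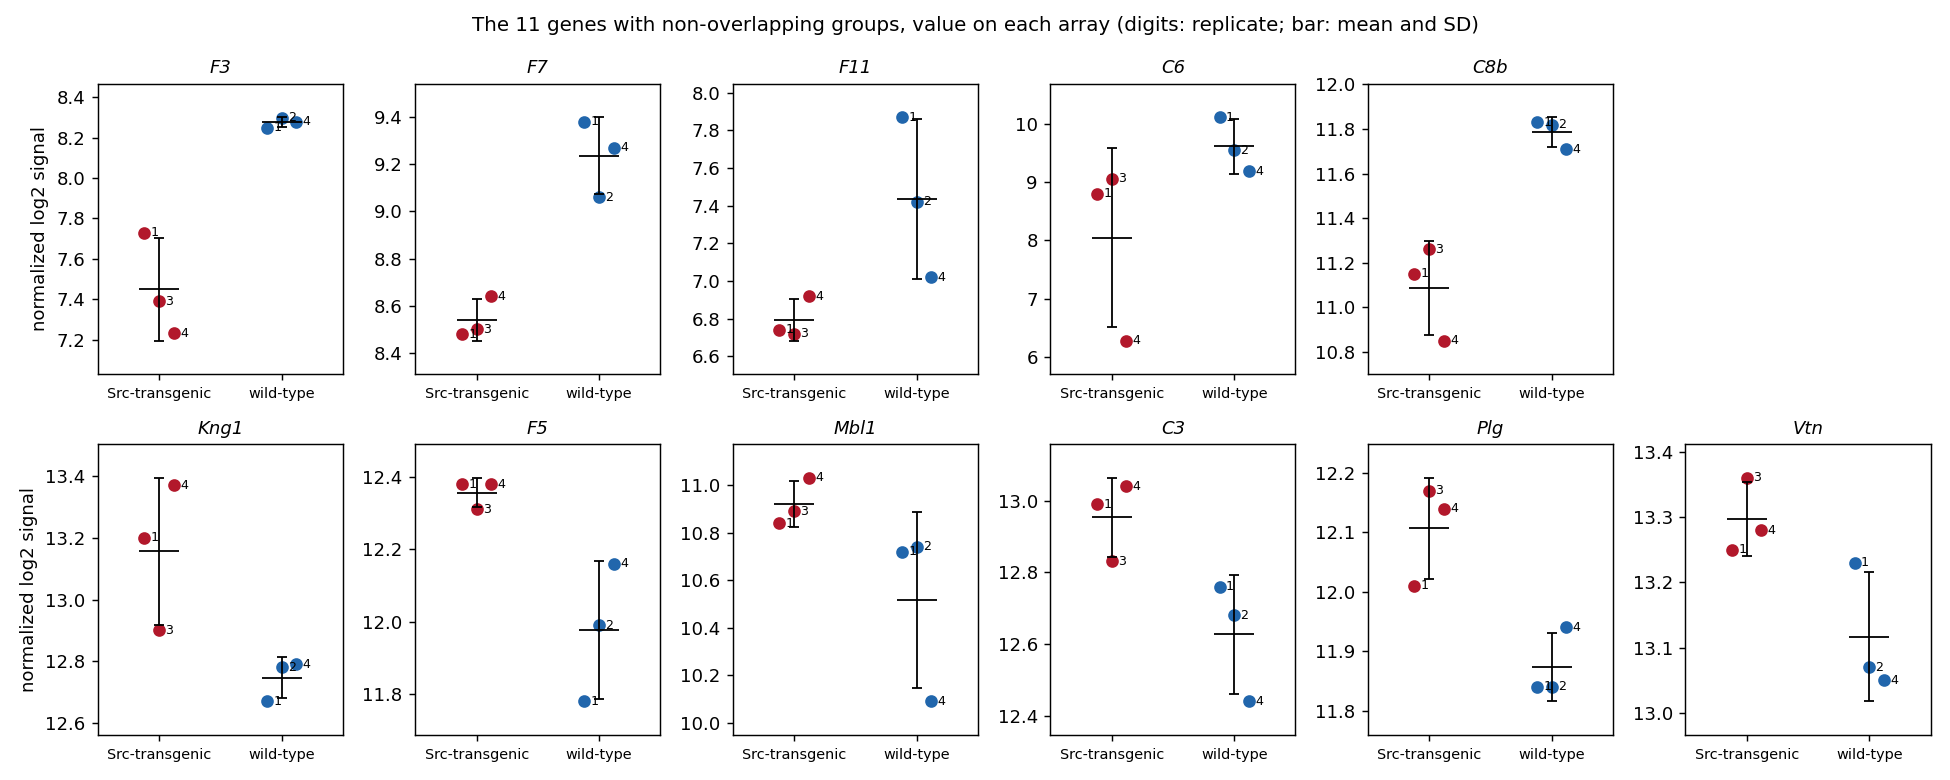
Normalized log2 signal (vertical axes, each panel with its own range that does not start at zero) of the 11 genes whose groups did not overlap, transgenic arrays in red and wild-type arrays in blue, with digits for the replicate and bars for mean and SD. F3, F7, F11, C6 and C8b are lower on all transgenic arrays and Kng1, F5, Mbl1, C3, Plg and Vtn are higher, and in the C6 panel transgenic replicate 4 (6.28) is far below the others.

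On the complement side, the lectin branch recognises sugars on microbes. Mbl1 encodes a mannose-binding lectin and Masp1 and Masp2 the proteases that travel with it. Mbl1 read 10.84, 10.89 and 11.03 on the transgenic arrays, against 10.72, 10.74 and 10.09 on the wild-type arrays. The transgenic arrays were higher, mostly through the low value of wild-type replicate 4, and the difference of 0.40 ± 0.24 was 0.19 without that array. The other mannose-binding lectin gene, Mbl2, read 12.47, 12.23 and 12.25 on the transgenic arrays, against 11.98, 11.62 and 11.67 on the wild-type arrays. Its groups were separate, with a difference of 0.56 ± 0.20 (unadjusted p = 0.030, limma adjusted p = 0.69). Median scaling gave Mbl2 0.26 (unadjusted p = 0.44), local correction gave 0.38 (unadjusted p = 0.10), and without transgenic replicate 4 it was 0.60 (unadjusted p = 0.053). Masp1 and Masp2 were negative, at -0.33 ± 0.21 and -0.42 ± 0.30, with overlapping groups. Masp2 was low on transgenic replicate 1 alone (9.54) and had -0.12 without it.

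The convertases, enzymes that cleave C3 and C5, and their regulators were positive for 3 of 4 genes. C3, the central component on which all branches converge, read 12.99, 12.83 and 13.04 on the transgenic arrays, against 12.76, 12.68 and 12.44 on the wild-type arrays. The groups were separate by a small margin, with a difference of 0.33 ± 0.19 (unadjusted p = 0.14). Its probe lay in a patch on wild-type replicate 4, local correction gave 1.00, and median scaling gave -0.03. The 1.00 rests on that array, already the lowest, which the correction took from 12.44 to 11.07. Cfi, the protease that inactivates the convertase, read 11.31, 11.03 and 11.51 on the transgenic arrays, against 11.02, 11.04 and 10.57 on the wild-type arrays. The groups overlapped, and the difference of 0.41 ± 0.24 was 0.25 without wild-type replicate 4. Cfb (factor B, the protease of the alternative convertase) and C2 (its classical and lectin counterpart), which are adjacent genes, differed by 0.08 ± 0.21 and -0.29 ± 0.23. Of 5 genes known as acute phase genes in mouse liver (Fga, Fgb, Fgg, C3 and Cfb), 5 were positive with a median of 0.15, 0 had an unadjusted p under 0.05 by limma, and C3 alone had separate groups. After median scaling all 5 were negative.

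Terminal complement genes were the most uneven of the roles. C8b, which encodes the beta chain of C8, was lower on every transgenic array. It read 11.15, 11.26 and 10.85 on transgenic replicates 1, 3 and 4, against 11.83, 11.82 and 11.71 on wild-type replicates 1, 2 and 4. The gap between the groups was wider than the range within either. The difference was -0.70 ± 0.20 (unadjusted p = 0.011, limma adjusted p = 0.69), or 1.63-fold lower with a 95% interval of 0.44 to 0.86 for the transgenic over wild-type ratio. Its probe lay in no patch, the value was -0.70 after local correction, -0.58 without transgenic replicate 4 and -0.99 after median scaling, and the arrays left out in turn gave -0.79 to -0.58.

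C6 and C8a were low on transgenic replicate 4 above all. C6, which binds C5b and begins the pore, read 8.80, 9.05 and 6.28 on the transgenic arrays, against 10.11, 9.54 and 9.18 on the wild-type arrays. Replicate 4 was at -3.33 relative to the wild-type mean, while replicates 1 and 3 lay just under the lowest wild-type array. The difference was -1.57 ± 0.76 (unadjusted p = 0.083), and -0.69 without replicate 4. C8a, which encodes the alpha chain and was chosen for naming after its values were seen, read 10.62, 10.60 and 8.92 on the transgenic arrays, against 10.80, 10.74 and 10.55 on the wild-type arrays. The groups overlapped except for replicate 4, which was at -1.78 relative to the wild-type mean. Its difference was -0.65 ± 0.49, and -0.08 without replicate 4. Among all 34 genes these were the largest departures of one array from the other arrays of its group, -2.65 for C6 and -1.69 for C8a. In mice, terminal complement activity in serum is known to be higher in males than in females. Replicate 4 was the array without Y-linked signal for 3 of the 4 Y-linked genes and with the highest female-biased signal, and the part of that in the C6 and C8a values was not tested.

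The other terminal genes did not follow C8b. C8g, which encodes the gamma chain, read 12.83, 12.81 and 12.73 on the transgenic arrays, against 12.99, 12.88 and 12.71 on the wild-type arrays. Its groups overlapped, with a difference of -0.07 ± 0.18 and an interval of -0.51 to 0.37. Hc, which encodes C5, differed by 0.17 ± 0.21. C9, which forms the ring of the pore, differed by 0.00 ± 0.32 and was lowest on transgenic replicate 4 (9.60), with 0.26 without it. Vtn, which encodes vitronectin, an inhibitor of pore assembly, read 13.25, 13.36 and 13.28 on the transgenic arrays, against 13.23, 13.07 and 13.05 on the wild-type arrays. Its groups were separate by a very small margin, and the difference of 0.18 ± 0.18 (unadjusted p = 0.35) was -0.15 after median scaling. Whether the C8 chains differ from one another in their response was not tested.

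**Figure D5:**
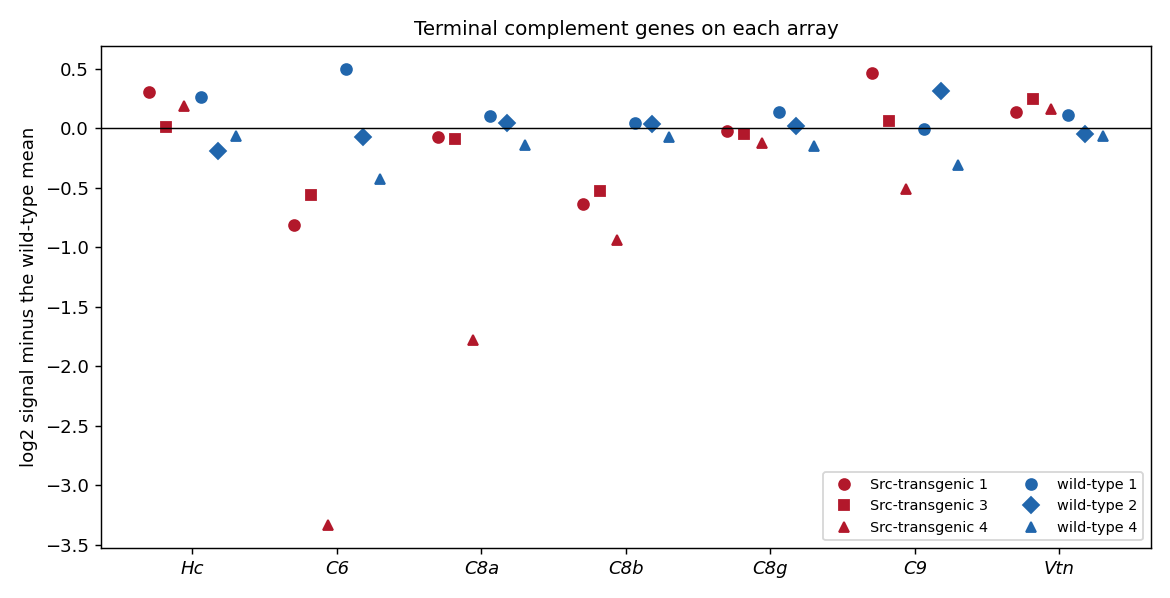
Log2 signal of the 7 terminal complement genes on each array, minus that gene's wild-type mean (vertical axis), transgenic arrays in red and wild-type arrays in blue. All 3 transgenic points of C8b lie below all wild-type points, while the low points of C6 (-3.33) and C8a (-1.78) belong to transgenic replicate 4.

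The sequences upstream of C8b, C8a and C6 are shown because these genes carry the terminal pathway values, and that of Fgb because the fibrinogen genes are the usual example of liver gene control. Each is the 250 bases before the gene start from RefSeq (GRCm38.p6), written 5′ to 3′ on the strand of the gene. Capitals mark letters that match, on either strand, GTTAAT (core letters of the site of the liver factor HNF1), TTCNNNGAA (STAT) or CTGGGAA (an interleukin 6 response element).
C8b, chr4:104766067-104766316, plus strand: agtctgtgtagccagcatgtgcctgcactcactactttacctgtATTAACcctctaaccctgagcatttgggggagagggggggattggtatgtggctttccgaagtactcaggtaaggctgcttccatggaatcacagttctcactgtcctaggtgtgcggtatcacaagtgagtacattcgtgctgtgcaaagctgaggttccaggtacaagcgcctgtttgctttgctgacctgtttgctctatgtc
C8a, chr4:104876399-104876648, minus strand: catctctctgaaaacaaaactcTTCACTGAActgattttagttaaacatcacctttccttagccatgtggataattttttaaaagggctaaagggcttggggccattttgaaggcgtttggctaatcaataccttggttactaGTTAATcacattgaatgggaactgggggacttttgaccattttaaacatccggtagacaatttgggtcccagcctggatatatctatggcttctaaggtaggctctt
C6, chr15:4726960-4727209, plus strand: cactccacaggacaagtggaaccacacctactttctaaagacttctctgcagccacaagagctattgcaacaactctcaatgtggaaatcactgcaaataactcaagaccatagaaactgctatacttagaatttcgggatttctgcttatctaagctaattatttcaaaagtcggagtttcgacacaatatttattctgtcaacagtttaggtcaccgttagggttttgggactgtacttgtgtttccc
Fgb, chr3:83049864-83050113, minus strand: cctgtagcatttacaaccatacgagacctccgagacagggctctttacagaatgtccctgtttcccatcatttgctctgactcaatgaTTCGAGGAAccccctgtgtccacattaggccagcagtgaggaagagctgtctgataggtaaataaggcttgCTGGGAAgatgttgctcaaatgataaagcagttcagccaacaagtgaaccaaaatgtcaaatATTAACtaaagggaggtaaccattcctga

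C8b and C8a, which are adjacent genes, each hold 1 GTTAAT match, and C8a also holds TTCNNNGAA. C6 holds none of these letters in this window, and Fgb holds all 3. The capital runs shown do not overlap one another. Promoter sequences were matched for 26 of the 34 genes. GTTAAT occurred in 7 of these 26 (26.9%), in F13b, Hc, Fga, Fgb, C8b, C8a and Vtn, against 6.52% of 27025 promoters of the same length. TTCNNNGAA occurred in 5 of 26 (19.2%, against 7.18%) and CTGGGAA in 4 of 26 (15.4%, against 9.08%), and in Masp2 these last 2 overlap. Of the other letters searched, TTNNGNAA (C/EBP) occurred in 42.3% against 36.9%, TGTTCT (glucocorticoid receptor) in 30.8% against 16.2%, and TTGCGCAA (C/EBP), CAAAGTCCA (HNF4) and CACGTG (E-box) in 0 of 26, against 0.17%, 0.381% and 6.05%. The genes with GTTAAT include both C8b, lower on all transgenic arrays, and Vtn, higher on all of them. A match of letters is a description of the sequence and not a measured binding site.

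Of 55 further genes of these pathways 48 had a probe, and they gave 26 positive and 22 negative values with a median of 0.02. None was called by limma after adjustment, and 2 had an unadjusted p under 0.05, Mbl2 and F13a1, both positive (4.17%, against 7.09% of all features). F13a1 encodes the catalytic subunit of the fibrin crosslinking enzyme and is made by megakaryocytes and macrophages. It was not above background on any array, at 4.37, 4.41 and 4.78 on the transgenic arrays, against 3.15, 4.09 and 3.08 on the wild-type arrays, so no fold is given. Its unadjusted p by limma was 0.016, and 0.051 without transgenic replicate 4. All 5 megakaryocyte and platelet markers were positive, 1 of them (Gp1bb) at an unadjusted p under 0.05, with summed signals of 224 to 346 on the transgenic and 189 to 221 on the wild-type arrays, and Itga2b and Gp1bb were not above background on any array. Their part in the F13a1 value was not tested.

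The rest of the wider set gave the following values, with genes picked for their roles. Serpinc1 encodes antithrombin, the main inhibitor of thrombin, and differed by -0.01 ± 0.24. Its probe lay in a patch on 2 arrays, local correction gave -0.53 (unadjusted p = 0.50), and median scaling gave -0.32. Serping1 encodes the inhibitor of C1, and differed by 0.02 ± 0.18, or -0.31 after median scaling. Of the C1q genes, which are expressed by macrophages and encode the recognition unit of the classical branch, C1qa, C1qb and C1qc differed by 0.06 ± 0.32, 0.06 ± 0.38 and -0.22 ± 0.30. Each was highest on transgenic replicate 4, and their values were -0.25, -0.29 and -0.53 without it. The Kupffer cell and macrophage markers with a probe, 3 of 6, summed to 1854 to 3193 on the transgenic and 1955 to 2449 on the wild-type arrays, with the highest sum on transgenic replicate 4, and their part in these values was not tested. C4b and C4a, near-identical copies that the probes may not tell apart, differed by 0.16 ± 0.21 and 0.11 ± 0.24, or -0.14 and 0.12 after median scaling.

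A pair of genes chosen after their values were seen also departed on transgenic replicate 4, Colec10 upward and Cfd downward. Colec10, which encodes a liver collectin, read 9.96, 9.21 and 12.73 on transgenic replicates 1, 3 and 4, against 9.81, 9.82 and 9.51 on the wild-type arrays. Its value was 0.92 ± 0.88 with that array and -0.13 without it. Cfd, which encodes factor D of the alternative branch, read 5.65, 6.74 and 2.38 on the transgenic arrays, against 7.86, 7.05 and 6.41 on the wild-type arrays. The reading of 2.38 stands for a signal under the floor, so it marks only that Cfd was not above background on that array. The difference of -2.18 ± 1.11 (unadjusted p = 0.096) was -0.91 without it. Replicate 4 was the highest array for Colec10 and the lowest for Cfd.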

How the data were processed

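Per the labels' protocols, poly(A)+ RNA was linearly amplified into biotin-bearing cRNA, detected by fluorescent streptavidin. The deposited intensity of each spot had background taken out by the authors, per the file headers, and arrays were not pooled. A second deposited intensity, divided by the array median, was equal to the authors' value table within 1e-06 for 34967 probes on every array. Excluding 620 control spots, each array was floored at its 1st percentile of positive signals (4.72 to 5.75), then log2 transformed and quantile normalized. Accessions were matched without versions to RefSeq of GRCm38.p6 (names and gene order), giving 13971 genes by the brightest probe and 20204 unnamed probes. A probe above background exceeded 33.0 to 50.6, a limit set per array from 570 control spots (their median and 3 times their scaled absolute deviation). The comparison used lmFit and eBayes of limma 3.58.1 (R 4.3.3), two-sided, with Benjamini-Hochberg adjustment over 34175 features, and the steps were tested on simulated data. The number of arrays limits the precision. The labels number transgenic samples as mice and wild-type samples as controls, and where separate animals are not stated p-values measure the spread between these samples.

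Patches are spots where the median deviation of neighbours within 4 rows and columns exceeded 0.5, and they held 0.73% to 7.55% of probes per array. Full values are given for genes at an unadjusted p under 0.05, with separate groups, with the smallest p of their role or with the highest or lowest signal (Fgb and Tfpi), and further pathway genes are named at an unadjusted p under 0.05 (up to 12). Others, such as Vkorc1, are named for their role. The genes and lists were chosen with earlier results of these data known. Alternatives were other scalings, floors, filters, probe rules, spread models, array weights, the authors' value table, local correction, a replicate block and each array left out. Leaving out probes in patches was chosen after seeing the data. Figures used matplotlib 3.10.9.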

Additional observations from a re-analysis of the deposited data

How the results depend on the processing

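Of 346 values of 22 named genes (Src, Mt1 and Mt2 included) under 16 alternatives, 335 kept their direction and none passed limma's adjusted threshold. Part of that count was fixed in advance, since some alternatives could not turn a direction. The intensity trend changes only the spread, and the authors' value table holds the same signals rescaled. Averaging a gene's probes changes nothing for a gene with a single probe. Median scaling turned Plg (-0.0545), C3 (-0.029), Vtn (-0.15), Fga (-0.19) and Fgb (-0.29), and the median of the 34 genes with them (-0.22). Local correction turned F7 (0.58), Fga (-0.0478) and Tfpi (0.019), and array weights turned Tfpi (0.0747). Tfpi also turned without transgenic replicate 3 (0.17) and without wild-type replicate 1 (0.27), with -0.3735 to 0.27 over the arrays left out. Beyond the patch values given above, the cause was not tested.

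The count of the 34 genes at an unadjusted p under 0.05 was 3, and 7 with an intensity trend in the spread (F3, F7, F11 and C8b lower, C3, F5 and Kng1 higher). Arrays left out gave 3 to 4 for that count, a median of 0.04 to 0.10, and 1 to 3 for the other pathway genes (1 without transgenic replicate 1 or wild-type replicate 1, and 1 without transgenic replicate 4, where Mbl2 and F13a1 were both lost and the 1 was C1qc, lower at -0.53). That last count was 1 with median scaling, with probes above background on all arrays and with local correction. Over all features 0 to 1 were called with an array left out, the 1 appearing without transgenic replicate 4 and without wild-type replicate 1. Features with an unadjusted p below 0.05 numbered 1493 on the higher and 931 on the lower side, and median scaling turned the split to 943 and 1311. Local correction left the count of the 34 genes at 3, but not with the same genes, and with 1236 features higher and 1359 lower. C8b stayed, while F3 and F7 gave way to Masp1, lower at -0.41, and Kng1, higher at 0.41. Without probes in patches the count was 2 of 29 genes, both lower, against 1406 features higher and 780 lower of 28004. In the main fit C8b alone of those 29 had such a p (3.45%). With a replicate block the count of the 34 genes was 1 (C6, -2.11), with 679 features higher and 669 lower. Replicates 2 and 3 each occur in 1 group only, so the difference in that fit rests on the arrays numbered 1 and 4. On these C6 read 8.80 against 10.11 (replicate 1) and 6.28 against 9.18 (replicate 4), transgenic against wild-type. The numbers are those of separate samples, so same-numbered arrays were not treated as pairs. Deviations of same-numbered arrays correlated at 0.06 for both shared numbers, above the -0.07 to 0.02 of differently numbered ones. These small correlations do not decide whether the numbers mark pairs.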
